A study of Bos taurus with 20 samples.

Results

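The genes described here encode subunits of nicotinic acetylcholine receptors: CHRNA1, CHRNB1, CHRND, CHRNG and CHRNE of the muscle receptor, and CHRNA10. They were taken as every array row whose annotated symbol was 1 of these 6, and a gene with several rows was described through the row with the highest mean over all columns. All 6 genes were found, among 11329 genes and 21475 rows in the deposited table, and CHRNA10 alone had a second row.

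The muscle receptor is the ion channel that opens when a motor neuron releases acetylcholine onto a muscle fibre. Fetal muscle builds it from alpha, beta, delta and gamma subunits and spreads it over the fibre, and in the mature muscle of mammals an epsilon subunit takes the place of gamma and the receptor is concentrated under the nerve terminal. CHRNA1 carries most of the acetylcholine binding site, CHRNB1 and CHRND complete the ring, CHRNG is the fetal subunit and CHRNE the adult one. CHRNA10 is known for a different receptor, which it forms with CHRNA9 in the hair cells of the inner ear. In a cattle gene table (RefSeq, assembly ARS-UCD2.0) CHRND and CHRNG are direct neighbours among protein-coding genes, while CHRNE lies elsewhere.

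The tissue was longissimus dorsi, the long muscle of the back, from cattle of 2 crosses, Piedmontese by Hereford on the one hand and Wagyu by Hereford on the other. The Piedmontese breed is heavily muscled through an inactive myostatin gene, and the Wagyu breed is noted for its marbled meat. Each cross was sampled at 60, 135, 195 and 280 days of gestation and at 3, 7, 12, 20, 25 and 30 months after birth, and the deposited column of each cross and age represents 3 fetuses or 4 born animals. Both crosses share the Hereford parent, and the labels name no treatment. With 1 column per cross and age there was no replicate within a cross at an age, so the spread between the 2 crosses at the same age stands in for it.

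The 72 RNA samples were run in pairs on 36 two-colour arrays, each holding both crosses of 1 age, and the number of arrays limits the precision. Values are on the deposited scale, read as log2, and column medians lay between 5.88 and 7.36. The fetal ages used 3 slides, the ages from 3 to 20 months another 4, and the 2 oldest ages a further 2, so any change across birth or across 20 to 25 months cannot be told apart from a change of slides. Adult fibre markers (a list of 8 measured genes such as MYH1, CKM and ACTN3) averaged 19.72 to 20.48 in the postnatal columns and 13.31 to 20.13 in the fetal ones, the lowest at 60 days. Cartilage markers averaged 3.503 to 5.04 after birth, against 15.08 in the Piedmontese and 14.59 in the Wagyu column of 60 days. In the same order they were 10.91 and 12.11 at 135 days and 8.25 and 8.26 at 195 days. Adipocyte markers averaged 9.85 and 8.72 at 135 days, against 3.42 and 3.94 at 60 days and 4.97 and 6.32 at 195 days. The part of other tissues in the results at these ages was not tested. In bulk tissue fewer cells of a type and less RNA per cell cannot be told apart.

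Across the 10 ages all 6 genes changed, in a test of age as a factor in which 87.4% of all rows also passed. The changes were of very different size. The F statistic of CHRNG was 163.3 (limma, adjusted p = 1.33e-12), that of CHRND 60.2 and that of CHRNE 49.9, whereas CHRNA1 reached 9.6, CHRNA10 5.8 and CHRNB1 3.6 (adjusted p = 0.0143).

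CHRNG, the fetal subunit, was among the strongest signals of the array until 195 days and had left that range by the end of gestation. In the Piedmontese cross its values at the 10 ages in order were 16.09, 15.55, 16.08, 7.93, 8.05, 6.68, 5.56, 6.86, 6.34 and 5.70. In the Wagyu cross they were 17.97, 17.37, 15.34, 8.05, 8.28, 6.24, 6.93, 7.14, 6.56 and 5.24. The columns of 280 days lay above 62.9% and 61.0% of their rows, against 96.7% or more in all 6 columns of the first 3 ages, with no overlap.

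Between 195 and 280 days CHRNG changed by -7.72 ± 0.52 (limma, SE, adjusted p = 2.97e-09), which was -8.15 in the Piedmontese and -7.29 in the Wagyu cross. From 280 days to 3 months the difference was 0.17 ± 0.52 (adjusted p = 0.826). Ordered by mean level, the first 3 fetal ages overlapped their neighbours, as did 3 months and 280 days, and the only gap of more than 1 log2 unit was the 7.54 between 195 days and 3 months.

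After birth CHRNG fell again, by 2.69 ± 0.52 between 3 and 30 months (limma, adjusted p = 0.0025). Without the Wagyu column of 30 months this fall was 2.20 and did not pass (adjusted p = 0.0589). At 30 months CHRNG stood above 45.5% of rows in the Piedmontese and 39.9% in the Wagyu column. The table carries no flag for signal above background, so a level this close to the middle of the rows is not shown to be expression.

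CHRNE, the adult subunit, moved the other way and went on rising for longer. Its Piedmontese values in order of age were 9.13, 7.63, 8.34, 10.32, 10.90, 11.31, 10.81, 11.90, 12.98 and 12.76. Its Wagyu values were 7.99, 7.62, 8.89, 10.51, 11.23, 11.70, 12.06, 13.09, 13.84 and 13.02. The 12 postnatal columns, from 10.81 to 13.84, did not overlap the 8 fetal ones, from 7.62 to 10.51.

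CHRNE rose by 1.80 ± 0.40 between 195 and 280 days (limma, adjusted p = 0.001), the same step in which CHRNG fell. From 135 to 195 days its difference was 0.99 ± 0.40, without a call (adjusted p = 0.1044). That difference was 1.23 and called both after quantile normalisation (adjusted p = 0.0429) and after centring (adjusted p = 0.0366). From 280 days to 3 months the difference of 0.65 ± 0.40 did not pass (adjusted p = 0.228). Between 3 and 30 months it rose by 1.83 ± 0.40 (adjusted p = 0.0051), by 1.87 in the Piedmontese and 1.79 in the Wagyu cross, and without the Wagyu column of 3 months the rise was 1.80 (adjusted p = 0.0632). In the order of mean levels 25, 30 and 20 months overlapped their neighbours, and so did 7, 12 and 3 months. The columns of 20 and 7 months, of 3 months and 280 days, of 280 and 195 days, and of 60 and 135 days did not overlap. From 60 to 135 days CHRNE was lower, at -0.93 ± 0.40, without a call (limma, adjusted p = 0.113).

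**Figure D1:**
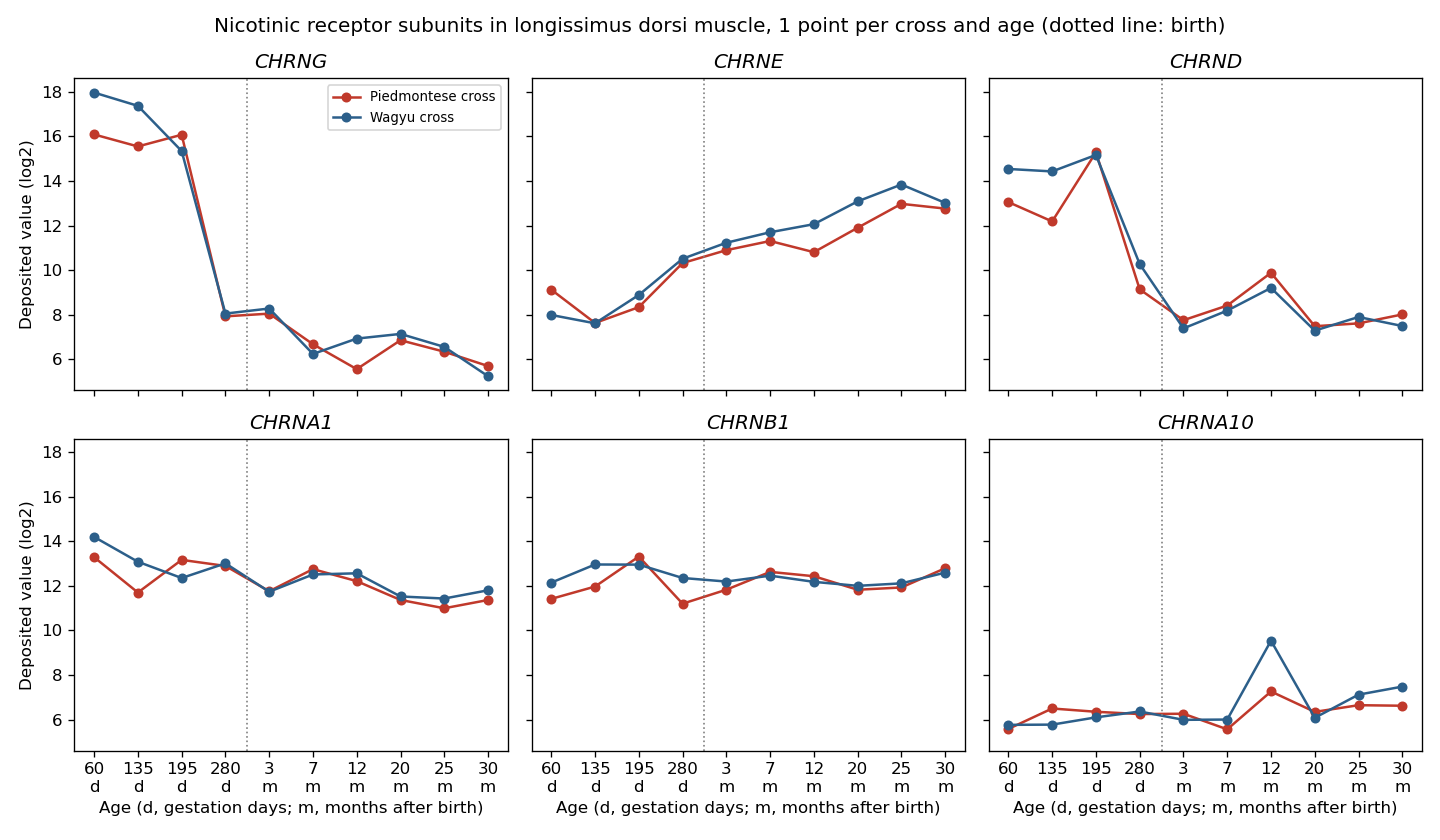
Deposited log2 value of each subunit gene (y axis) at the 10 ages (x axis), 1 point per cross and age, with Piedmontese in red and Wagyu in blue. CHRNG and CHRND drop between 195 and 280 days, CHRNE runs from 7.62 at 135 days to 13.84 at 25 months, CHRNA1 and CHRNB1 stay between 10.99 and 14.19, and CHRNA10 has a single high Wagyu point of 9.54 at 12 months.

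The exchange of gamma for epsilon was followed as CHRNG minus CHRNE within each column, which cancels anything that shifts a whole column. As the probes of the 2 genes need not respond alike, only its change with age is read. The mean of the crosses was 8.47, 8.84 and 7.09 at 60, 135 and 195 days, then -2.42 at 280 days. From 3 to 30 months it went on down through -2.90, -5.05, -5.19, -5.50 and -6.96 to -7.42.

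Over ages the difference averaged -5.50 ± 1.61 after birth (SD, 6 ages) and 5.49 ± 5.33 before it (SD, 4 ages). The postnatal ages differed by -10.995, with an exact two-sided permutation p of 0.0048 over the 210 regroupings of the 10 ages, the smallest this design can give. The test treats ordered ages as exchangeable, so a steady fall with age from any source can reach the same p. It therefore says nothing particular of an exchange of subunits. No postnatal age overlapped the fetal ones, and the mean of 280 days was nearer to that of 3 months than to that of 195 days. At 280 days it was -2.39 in the Piedmontese and -2.46 in the Wagyu column, just above the postnatal columns, which ran from -7.78 to -2.85.

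**Figure D2:**
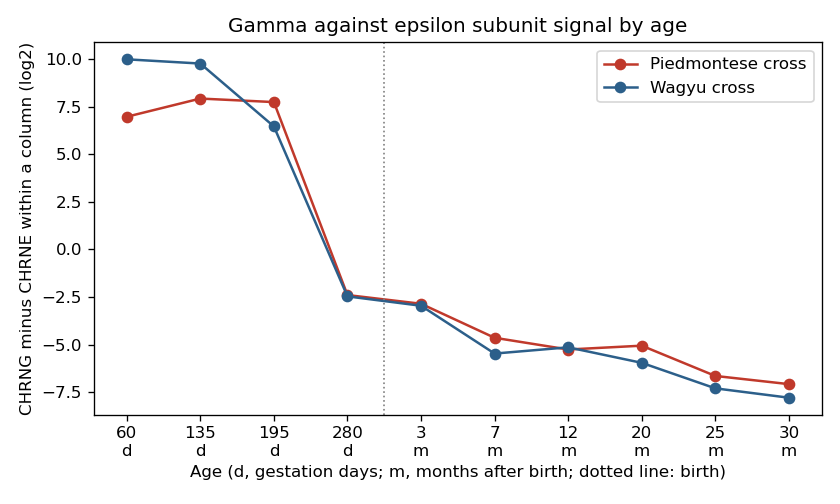
CHRNG minus CHRNE within a column (log2, y axis) by age (x axis), 1 point per cross and age, with Piedmontese in red and Wagyu in blue. The values run from 6.46 to 9.98 until 195 days and from -2.39 down to -7.78 from 280 days on.

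CHRND, the delta subunit that both receptor forms contain, followed CHRNG rather than CHRNE. Its Piedmontese values in order of age were 13.05, 12.19, 15.29, 9.14, 7.76, 8.41, 9.88, 7.49, 7.61 and 8.01. The Wagyu values were 14.54, 14.43, 15.17, 10.27, 7.39, 8.19, 9.20, 7.29, 7.90 and 7.496. Its highest age was 195 days, and the 2 columns of that age did not overlap any other.

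The fall of CHRND from 195 to 280 days was 5.52 ± 0.54 (limma, adjusted p = 2.12e-07), and across birth it fell by a further 2.14 ± 0.54 (adjusted p = 0.0079). That second fall was 1.67 without the Wagyu column of 280 days (adjusted p = 0.085) and 1.76 without that of 3 months (adjusted p = 0.1003). The rise of CHRND from 135 to 195 days was 1.92 ± 0.54 (limma, adjusted p = 0.0234). On the deposited scale this rise was the only member call among rises of that step, in which 5.47% of rows rose. It was 3.10 in the Piedmontese and 0.74 in the Wagyu cross, and it was 0.84 without the Piedmontese column of 135 days (adjusted p = 0.4053).

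CHRNA1, the binding subunit, changed far less. Its 10 Piedmontese values ran from 10.99 at 25 months to 13.28 at 60 days with a median of 11.98, and its Wagyu values from 11.43 at 25 months to 14.19 at 60 days with a median of 12.43. Postnatal and fetal columns overlapped, at 10.99 to 12.75 and 11.70 to 14.19. It fell by 1.35 ± 0.36 from 60 to 135 days (limma, adjusted p = 0.0132), the only fall called among the members in a step where 12% of rows fell, and by 1.20 ± 0.36 across birth (adjusted p = 0.0197).

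Both falls of CHRNA1 lost their call in some fits, among them the first after centring (-1.11, limma adjusted p = 0.0554). The first was 0.73 without the Piedmontese column of 135 days (adjusted p = 0.2091) and 0.99 without the Wagyu column of 60 days (adjusted p = 0.1271). The second lost its call after quantile normalisation, where it was -1.12 (adjusted p = 0.0642), and without either column of 280 days or the Wagyu column of 3 months (adjusted p = 0.0526 to 0.1502). Its size changed little, at -1.37 to -1.04 over all fits that left out 1 column.

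CHRNB1, the beta subunit, was called in a single step. Its values ran from 11.20 to 13.31 in the Piedmontese cross, both extremes before birth, and from 12.00 to 12.96 in the Wagyu cross. It fell by 1.36 ± 0.33 from 195 to 280 days (limma, adjusted p = 0.0024), by 2.11 in the Piedmontese and 0.60 in the Wagyu cross. Without the Piedmontese column of 195 days the fall was 1.01 (adjusted p = 0.0555), and without that of 280 days 0.86 (adjusted p = 0.0736).

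Taking the last fetal step as a whole, 1 of the 6 genes was called higher and 3 lower at 280 than at 195 days, beside 14.2% of all rows higher and 33.6% lower. For 280 against 60 days the counts were 1 higher (CHRNE, by 1.86 ± 0.40) and 2 lower (CHRNG at -9.04 ± 0.52 and CHRND at -4.09 ± 0.54), beside 18.6% and 42.4% of rows. Across birth 0 members were higher and 2 lower, beside 13.8% and 14.8%. From 3 to 30 months 1 was higher and 1 lower, beside 18.4% and 3.49%.

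The mean of the 6 postnatal ages against the mean of the 4 fetal ages sums these steps. CHRNG differed by -7.67 ± 0.24 (6.63 against 14.30, limma adjusted p = 1.81e-14), CHRND by -4.96 ± 0.25 (8.05 against 13.01) and CHRNA1 by -1.13 ± 0.16 (11.83 against 12.96). CHRNE was higher by 3.33 ± 0.18 (12.13 against 8.80, adjusted p = 2e-11) and CHRNA10 by 0.66 ± 0.21 (6.74 against 6.08, adjusted p = 0.0107). CHRNB1 differed by -0.04 ± 0.15 (adjusted p = 0.818).

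With 2 of 6 higher and 3 of 6 lower, the members' counts were near the background of 22.2% and 51.3% of rows, so the counts say nothing particular of these genes. Their median difference was -0.58 and that of all rows -0.30. The call of CHRNA10 was lost with stage in place of age in the model (adjusted p = 0.1347). Its postnatal mean includes 8.40 at 12 months, its highest age, and its medians were 6.48 after birth and 6.17 before it. The second CHRNA10 row averaged 5.665 after birth and 5.375 before it.

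**Figure D3:**
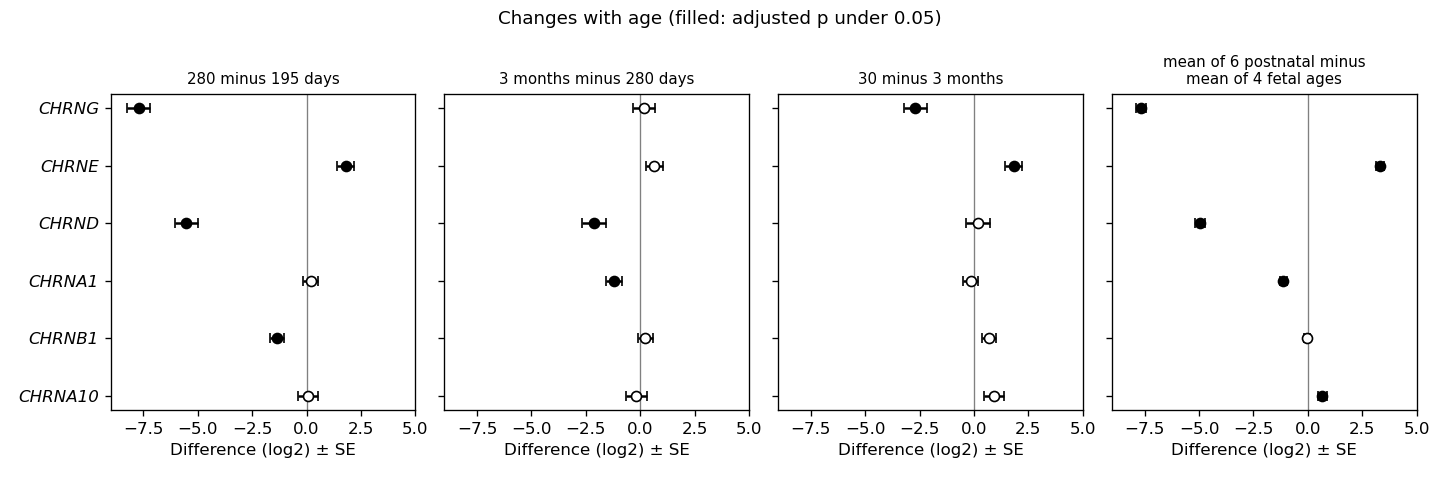
Difference in log2 units with its standard error (x axis) for each subunit gene (y axis) in 4 comparisons, filled where the adjusted p passed 0.05. CHRNG, CHRND and CHRNE hold the 3 largest postnatal minus fetal differences, at -7.67, -4.96 and 3.33.

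How columns are scaled moves the split of all calls. The share of called rows that were higher was 30.2% for postnatal minus fetal, 49.9% after quantile normalisation and 66.1% after centring each column on its median. In the same order the shares were 30.4%, 54.7% and 72.9% for 280 minus 60 days, 29.7%, 54.5% and 71.3% for 280 minus 195 days, and 48.2%, 47.6% and 33.4% across birth. They were 84.1%, 48.4% and 70.1% for 30 minus 3 months.

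The shorter steps shifted likewise. The shares were 38.7%, 52.6% and 66% for 135 minus 60 days, 36.6%, 51.9% and 66.6% for 195 minus 135 days, and 14.9%, 50.5% and 51.7% for 20 minus 12 months. For Piedmontese minus Wagyu they were 23.3%, 39.2% and 28.2%, and for the cross difference by stage, with 4, 4 and 5 calls in all, 50%, 75% and 80%. The median over all rows of postnatal minus fetal was -0.30, 0.00 and 0.32 under the 3 scalings, and that of 280 minus 60 days -0.34, 0.15 and 0.89.

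CHRNG, CHRND and CHRNE kept direction and call in the last fetal step and in postnatal minus fetal under all 3 scalings. CHRNB1 did not: postnatal minus fetal it was 0.36 after quantile normalisation (adjusted p = 0.0662) and 0.58 after centring (adjusted p = 0.0035). Its fall from 195 to 280 days was 0.61 after centring (adjusted p = 0.1223).

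CHRNA10, the inner ear subunit, was the only one of the 6 with its highest value in the middle of postnatal life. Its Piedmontese values in order of age were 5.58, 6.50, 6.35, 6.25, 6.26, 5.56, 7.26, 6.35, 6.65 and 6.62. Its Wagyu values were 5.76, 5.77, 6.10, 6.36, 5.99, 6.002, 9.54, 6.08, 7.12 and 7.48. Outside 12 months the gene stayed between 37.0% and 56.6% in the ranking of its columns' rows, and the Wagyu column of 12 months stood at 69.0%.

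The second CHRNA10 row had its highest value in the same column, 6.78, and its highest Piedmontese value, 5.98, at the same age. Over the 20 columns, which share arrays and slides, the rows had r = 0.90, over the 12 postnatal columns 0.92 and over the 8 fetal ones 0.56. From 7 to 12 months CHRNA10 rose by 2.62 ± 0.47 (limma, adjusted p = 0.0108), by 1.70 in the Piedmontese and 3.54 in the Wagyu cross, in a step in which 1.07% of rows rose. From 12 to 20 months it fell by 2.19 ± 0.47 (adjusted p = 0.0204) and CHRND by 2.16 ± 0.54 (adjusted p = 0.0454), in a step in which 1.95% of rows fell.

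These calls rest on few columns. Without the Wagyu column of 12 months the rise of CHRNA10 was 1.51 (adjusted p = 0.0945) and its fall 1.08 (adjusted p = 0.2431). The rise also lost its call without the Piedmontese column of 7 months (2.53, adjusted p = 0.0978) or the Wagyu one (2.70, adjusted p = 0.0877). The fall lost its call without the Piedmontese column of 20 months (-2.49, adjusted p = 0.0974) or the Wagyu one (-1.88, adjusted p = 0.2231), after quantile normalisation (-1.88, adjusted p = 0.0535) and after centring (-1.93, adjusted p = 0.0557). The fall of CHRND lost its call in 14 of the 20 fits that left out 1 column, with sizes from -2.70 to -1.61 over the 20.

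Setting 12 months against the other 5 postnatal ages was chosen after the values were seen, so its p-values lend no independent support. CHRNA10 was higher at 12 months by 1.99 ± 0.36 (8.40 against 6.41, limma adjusted p = 0.0044), by 0.97 in the Piedmontese and 3.01 in the Wagyu cross, and by 0.88 without the Wagyu column of that age (adjusted p = 0.1936). CHRND was higher by 1.79 ± 0.42 (9.54 against 7.75, adjusted p = 0.0184), by 2.03 and 1.55 in the 2 crosses, and by 1.24 without the Piedmontese column of that age (adjusted p = 0.4723). The 2 members called higher and 0 called lower stand beside 3.46% and 2.8% of all rows.

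CHRND had no overlap between its 12-month columns and any other postnatal column, whereas for CHRNA10 the Piedmontese column of 12 months lay below the Wagyu column of 30 months. Of 5 adipocyte markers 4 were lower at the same age, with a list median of -2.71 against -0.01 for all rows, among them CIDEC at -3.28 ± 0.34 (adjusted p = 0.000106). The 8 adult fibre markers held 0 calls, with a median of 0.05. The part of these markers in the result was not tested.

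The crosses were compared next, at all ages together and then by age. With age in the model 0 of the 6 members differed between the Piedmontese and the Wagyu cross, beside 0.0652% of rows higher and 0.214% lower in the Piedmontese. Every member's mean was lower in the Piedmontese cross, from -0.26 ± 0.15 for CHRNB1 to -0.43 ± 0.23 for CHRNG (limma, adjusted p = 0.575 to 0.843). An exact two-sided sign-flip test over the 10 ages gave p = 0.109 to 0.363. The difference between postnatal and fetal ages in the cross difference was likewise called for 0 members, beside 0.00931% of rows in each direction. Its largest value was 1.47 ± 0.34 for CHRND (adjusted p = 0.228), which became 1.91 (adjusted p = 0.0133) without 195 days.

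CHRNE was lower in the Piedmontese cross at every postnatal age. In the postnatal columns alone it differed by -0.71 ± 0.14 (11.78 against 12.49, limma adjusted p = 0.0213), with single ages from -0.26 at 30 months to -1.26 at 12 months. In that fit 1 member was lower and 0 were higher, beside 1.14% and 0.722% of rows. At 60 days CHRNE was instead 1.14 higher in the Piedmontese column, 9.13 against 7.99. A list of 8 motor axon markers was also higher in that Piedmontese column, 10.26 against 7.501. Its members were not alike over the fetal ages. From 60 to 280 days NEFM changed by -9.16 and PRPH by -9.01, whereas CHAT gave 0.40 and SLC5A7 -0.59, both without a call. From 60 to 135 days SLC5A7 changed by -1.48 and CHAT by 0.36. The list mean is thus not shown to be of motor axons, and its part in the result was not tested.

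At 60 and 135 days the other muscle subunits were lower in the Piedmontese cross. CHRNG differed by -1.88 and -1.82 at these ages, CHRND by -1.49 and -2.24, CHRNA1 by -0.91 and -1.38, and CHRNB1 by -0.73 and -0.99. These are single differences without a test, and each lay among the lowest 0.186% to 5.90% of all rows at its age. At 195 days all 4 were higher in the Piedmontese column, by 0.12 to 0.81. At 280 days all 4 differences were again negative, at -0.12 for both CHRNG and CHRNA1, -1.13 for CHRND and -1.15 for CHRNB1. The median difference of all rows at that age was itself -0.31. CHRNG and CHRNA1 lay above 67.4% and 68.0% of rows there, and CHRND and CHRNB1 above 5.37% and 5.06%. Relative to all rows only CHRND and CHRNB1 were thus lower.

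Markers of muscle fibres moved with them. The 5 embryonic and perinatal fibre genes (MYH3, MYH8, MYL4, ACTC1 and TNNT2) averaged -1.04, -2.19, 0.75 and -0.88 at the 4 fetal ages in order, and the 8 adult fibre genes -1.38, -2.31, 0.25 and -0.47. The dyes of the crosses were not balanced before birth. The part of fibre content, of other tissues and of dye in these differences was not tested.

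**Figure D4:**
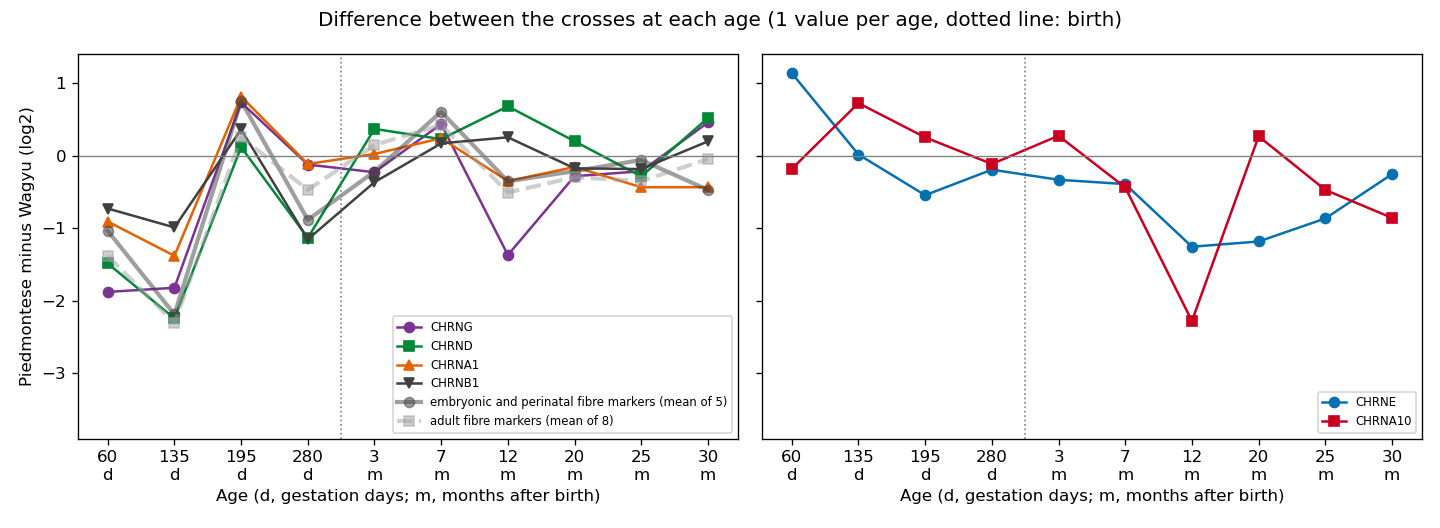
Piedmontese minus Wagyu in log2 units (y axis) at each age (x axis), 1 value per age. On the left are CHRNG, CHRND, CHRNA1 and CHRNB1 with the means of 2 fibre marker lists (broad grey lines), all below 0 at 60 and 135 days and above it at 195 days; on the right are CHRNE, at 1.14 at 60 days, and CHRNA10, at -2.28 at 12 months.

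Genes that act with the receptor at the neuromuscular junction were counted in lists by role. The lists were put together with earlier results of these data known, and their counts for 280 minus 195 days stand beside 14.2% of all rows higher and 33.6% lower. In the last fetal step the clustering pathway, in which nerve-derived agrin signals through the kinase MuSK to gather receptors, had 0 of 5 measured genes higher and 2 lower: AGRN by -4.07 ± 0.26 (limma, adjusted p = 1.61e-09) and MUSK by -1.45 ± 0.32 (adjusted p = 0.0011). MUSK was -0.71 after centring (adjusted p = 0.0922). RAPSN, the scaffold that anchors the receptor, gave -0.63 ± 0.42 (adjusted p = 0.2464), and LRP4, the agrin receptor, was not analysed here.

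Of 6 cleft genes 5 were lower at 280 than at 195 days, with a list median of -2.32 beside -0.16 for all rows. ACHE, the enzyme that breaks down acetylcholine, fell by 4.64 ± 0.24 (limma, adjusted p = 1.78e-10) and the laminin LAMA4 by 4.37 ± 0.38. ACHE had values of 3.24 and 3.63 at 280 days in the Piedmontese and Wagyu columns, against 8.22 and 7.93 at 195 days. Like CHRND it had its highest age at 195 days.

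Among 4 genes of neuregulin signalling and ETS factors, which drive transcription in nuclei under the synapse, 0 were higher and 3 lower, beside 14.2% and 33.6% of all rows. ERBB3, a neuregulin receptor, fell by 5.02 ± 0.31 (limma, adjusted p = 1.31e-09) and GABPB1, a partner of an ETS factor, by 1.74 ± 0.24. Of 3 scaffold genes DTNA (alpha-dystrobrevin) rose by 2.08 ± 0.25 and UTRN (utrophin) fell by 2.27 ± 0.21. SNTB2 fell by 0.70 ± 0.24, but after centring it gave 0.05.

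Genes known in rodents to respond to nerve activity or denervation split, with 5 of 10 higher and 4 lower, beside 14.2% and 33.6% of all rows. TRIM63, a ubiquitin ligase of muscle wasting, rose by 6.43 ± 0.51 (limma, adjusted p = 1.99e-08) and the myogenic factor MYF6 by 2.69 ± 0.42. MYOG, the myogenic factor that activates receptor genes, fell by 4.14 ± 0.32 (adjusted p = 1.49e-08) and NCAM1, an adhesion molecule of immature fibres, by 4.09 ± 0.30. Of 2 receptor chaperones TMEM35A fell by 0.80 ± 0.24, which after centring was -0.06 (adjusted p = 0.7692), and RIC3 gave 0.77 ± 0.36 (adjusted p = 0.088).

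The lists were also counted over the stages. Postnatal minus fetal, 1 of 5 clustering genes was higher and 4 lower, 0 of 6 cleft genes higher and 5 lower, and 0 of 4 neuregulin and ETS genes higher and 4 lower, beside 22.2% of all rows higher and 51.3% lower. After centring the lower counts were 2, 4 and 4, and 2 cleft genes were higher. AGRN differed by -2.64 ± 0.12, ACHE by -2.40 ± 0.11 and ERBB3 by -6.15 ± 0.14, and RAPSN by 0.48 ± 0.19 (limma, adjusted p = 0.0345). In the same comparison 4 of 8 motor axon markers were lower and 1 higher, 5 of 5 fibroblast markers were lower, and 7 of 8 adult fibre markers were higher. Their part in the list counts was not tested.

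**Figure D5:**
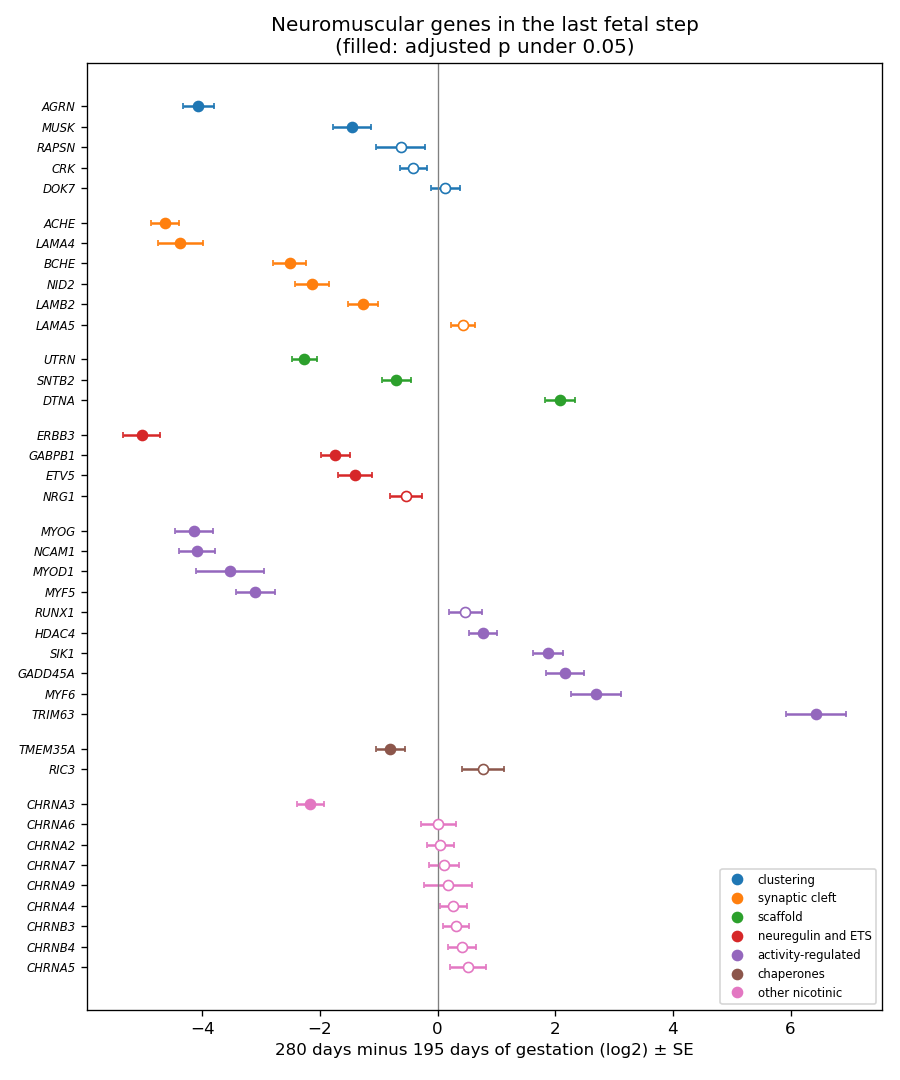
Difference between 280 and 195 days of gestation in log2 units with its standard error (x axis) for each measured gene of 7 lists (y axis, grouped by colour), filled where the adjusted p passed 0.05. AGRN, ACHE, LAMA4, ERBB3, MYOG and NCAM1 lie between -5.02 and -4.07, and TRIM63 at 6.43.

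The other nicotinic subunits, which are known from neurons and sensory cells, moved less between the stages than CHRNG, CHRND and CHRNE did. Their list mean was low, at 3.64 to 4.47 in the postnatal and 4.04 to 4.60 in the fetal columns. The 25th percentile of the rows of a column lay between 3.99 and 4.87, so small movement cannot be told apart from weak signal. Of 9 measured, 1 was higher and 4 lower postnatal minus fetal, near the 22.2% and 51.3% of all rows, with differences from -0.84 ± 0.10 (CHRNA4) to 0.38 ± 0.14 (CHRNA5), a count that turned to 6 higher and 1 lower after centring. From 195 to 280 days CHRNA3 fell by 2.16 ± 0.23 (limma, adjusted p = 6.27e-07) and the other 8 held no call, though 6 of the 9 were called higher after centring. CHRNA9, the known partner of CHRNA10, differed by 0.24 ± 0.18 postnatal minus fetal (adjusted p = 0.2583).

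The genes whose pattern over the 20 columns was most like each member were found by Pearson correlation among 11328 genes, as a description, since all columns share the same ages. For CHRNG they were PTPRD (r = 0.990), ERBB3 (0.989), TTYH2 (0.987), MEST and CDCA7 (both 0.984). For CHRND they were CPNE7 (0.975), MYH3 (0.974), the embryonic myosin heavy chain, TRAF5, TRPM4 and ARHGAP36 (0.960 at the lowest). CHRNA10 had looser neighbours, BECN1 (0.777), GCDH, SLC35G6, DECR1 and OGT (0.748). For CHRNA1 they were LHFPL3 (0.854), CCKBR, CITED1, ITGA5 and PIAS1 (0.829).

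Among the members themselves CHRNG and CHRND had r = 0.93, CHRNG and CHRNE -0.90, and CHRND and CHRNE -0.89. CHRNA1 had 0.70 with CHRND and 0.62 with CHRNG, and CHRNB1 no value beyond 0.37 with any other. CHRND ranked 749 among the 11328 genes by likeness to CHRNG, and CHRNG ranked 108 by likeness to CHRND, so many other genes had a pattern nearer to each of them.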

How the data were processed

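Per the submitters' processing notes, Agilent Feature Extraction 8.5.1.1 read the scans. The deposited values were read as log2 intensity; the log base, the normalisation and the way animals, dyes and arrays were combined are not stated in the labels or headers. The authors also deposited a list of dyes and scans, with other information than signal, from which the array layout was taken. Of 21475 rows, 12276 carried 1 gene symbol. All rows were fitted in limma 3.58.1 (R 4.3.3) with terms for age, as a factor, and cross, which left 9 residual degrees of freedom. Benjamini-Hochberg adjustment ran over every row, and 0.05 was the threshold. Cross by stage was tested on the 10 differences between the crosses. Tests were checked on simulated data with independent columns, which cannot show how they behave with the shared arrays and slides of the real ones. Columns of a cross and age are single, so p-values measure the spread between the crosses and assume independent columns. That assumption is not met, because the 2 columns of an age share arrays and slides. The residual may leave out the spread between arrays and slides of different ages, so p-values for changes with age may be too small. All ages share 1 residual for a row. Over all rows the SD of the cross difference was 0.40 to 0.62 at the fetal ages and 0.28 to 0.37 at the postnatal ones. Standard errors may thus be too small for fetal steps and too large for postnatal ones. Named were the 6 members, up to 2 passing genes at each end of a list, and the 5 nearest patterns; list genes without a call, and those named in passing as list examples, were chosen after their values were seen. Members and lists were chosen with earlier results of these data known. Python 3.11.15, pandas 2.3.3 and matplotlib 3.10.9 made tables and figures. Alternatives were quantile normalisation, median centring, leaving out the lowest 25% of rows, a trended robust prior, averaged rows, subsets of columns, and each column left out in turn.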

Additional observations from a re-analysis of the deposited data

Results flagged for a closer look

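In CHRNA10 the difference between the crosses at 12 months, -2.28 (Piedmontese minus Wagyu, 7.26 against 9.54), stood apart from those of the other ages by 0.473 of the whole range. In CHRNE the difference at 60 days, 1.14 (9.13 against 7.99), stood apart by 0.469. Both shares were just above the critical value of Dixon's test for 10 values. Chance flags about 1 in 20 such sets, and 6 were looked at. The second CHRNA10 row was 5.98 in the Piedmontese and 6.78 in the Wagyu column of 12 months.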

How the results depend on the processing

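CHRNG, CHRND and CHRNE kept direction and call for 280 minus 60 days, 280 minus 195 days and postnatal minus fetal in every alternative run. For 280 minus 60 days 2 members were higher after quantile normalisation and 3 after centring; CHRNA1 was 0.44 after centring, and CHRNB1 0.84 and 1.23 under these scalings and -0.50 to 0.49 with a column left out. For 280 minus 195 days 2 members were higher after centring, and with a column left out CHRNA10 ran from -0.22 to 0.38 and CHRNA1 from -0.41 to 0.80. Across birth 1 member was lower after quantile normalisation and 0 to 2 with a column left out; CHRNG was -0.0561 after quantile normalisation, and with a column left out CHRNA10 ran from -0.49 to 0.13 and CHRNB1 from -0.26 to 0.73. For 30 minus 3 months 2 members were higher in the postnatal columns alone, and with a column left out 0 to 2 were higher and 0 to 1 lower, with CHRND from -0.27 to 0.64. For postnatal minus fetal 1 member was higher with stage in place of age, and CHRNB1 was 0.36 after quantile normalisation, 0.58 after centring and -0.16 to 0.0828 with a column left out. For 12 months against the other postnatal ages, chosen after seeing the data, 1 member was higher after quantile normalisation or with a trended prior and 1 to 2 with a column left out; 1 was lower in the postnatal columns alone and 0 to 1 with a column left out. There CHRNB1 was -0.0752 after quantile normalisation and -0.22 to 0.36 with a column left out, and CHRNG -0.99 to 0.0589. Between the crosses 1 member was lower in the postnatal columns alone, where CHRND was 0.28; in the fetal columns alone CHRNA10 was 0.17 and CHRNE 0.10. For cross by stage the second CHRNA10 row gave 0.0186, and with an age left out 0 to 1 members were higher and CHRNA1 ran from -0.12 to 0.62. Where a cause is not named above it was not tested.

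Each cross and age has 1 column, so there were no replicate numbers to pair; the crosses were paired by age. The table has no flags for signal over background, so low values such as those of CHRNA10 and of CHRNG after birth have no known floor. Each column represents 3 or 4 animals, combined in a way that is not stated, and their own spread is not used here. Slides changed with stage, so slide and stage cannot be told apart.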
